A study of Sus scrofa with 10 samples.

Results

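Genes that copy DNA were followed in the right ventricle of pigs: the proteins that mark and open origins of replication, the polymerases and clamp proteins of the replication fork, and the enzymes that supply deoxynucleotides. Members were taken by gene symbol from a list of 49 names, and 48 of them were found in a table that names 12378 genes and gives 3260 more by identifier alone. RRM2, the small subunit of ribonucleotide reductase, matched no symbol and so is not analysed here. The study holds 1 bulk RNA library from each of 10 animals, 5 labelled CTEPH (chronic thromboembolic pulmonary hypertension), a disease of blocked lung arteries that loads the right ventricle, and 5 Sham animals. CTEPH libraries are s1, s3, s4, s5 and s9, and Sham libraries are s2, s6, s7, s8 and s10. The labels name no breed, age, sex, time point, genetic change or drug, and do not say how CTEPH was produced.

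Replication is prepared in G1 phase, when the origin recognition complex (ORC), CDC6 and CDT1 load the ring-shaped MCM2 to MCM7 helicase onto DNA. This step is called licensing, and geminin (GMNN) blocks it later in the cycle. In S phase, CDC45 and the GINS complex turn the loaded ring into an active helicase, polymerase alpha with primase begins each strand, and polymerases epsilon and delta extend the leading and lagging strands on the sliding clamp PCNA. Many of these genes are transcribed chiefly in cycling cells, and adult heart muscle is known for a low rate of cell division.

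The values are on a log2 scale and almost identically distributed in all libraries. Below a log2 value of 11.18 they could be read back as whole counts, in which form 80.3% of the table and all 10 values of 44 members were available. Relative depth from these counts ranged from 0.724 (s9) to 1.53 (s4). Cardiomyocyte markers fitted the labelled tissue: TNNT2, a troponin of heart muscle, averaged 18.89 ± 0.30 in CTEPH (SD, n = 5) against 18.76 ± 0.23 in Sham (SD, n = 5). Levels of different genes are not compared with each other, since no transcript lengths were used.

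Of the 48 members, 18 rose in CTEPH and 0 fell (limma, adjusted p under 0.05 with Benjamini-Hochberg over all genes), or 37.5%. Of all genes tested, 2.83% rose and 1.79% fell. The members were chosen with earlier results of these data known, so their share is no independent result. The median log2 fold change of the members was 0.40, against -0.03 for all genes. An unadjusted p under 0.05 was found for 27 members, ORC4 and POLD2 among them lower in CTEPH, and for 20.3% of all genes. With voom on the recovered counts 16 of 44 members rose and 0 fell, where 2.84% of all genes that could be tested rose. The remaining 30 members were not called by limma, and 26 of these had a 95% interval with an upper bound under 1 on the log2 scale. In 18 members the lowest CTEPH library exceeded the highest Sham library, where 3.70% of all genes did so, and in 1 member, POLD2, the order was the reverse, as in 2.87% of all genes. In bulk tissue, more cells of a cycling type and more RNA per cell cannot be told apart. The plot of fold changes by role shows that each of the 10 roles held both called and uncalled genes.

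**Figure D1:**
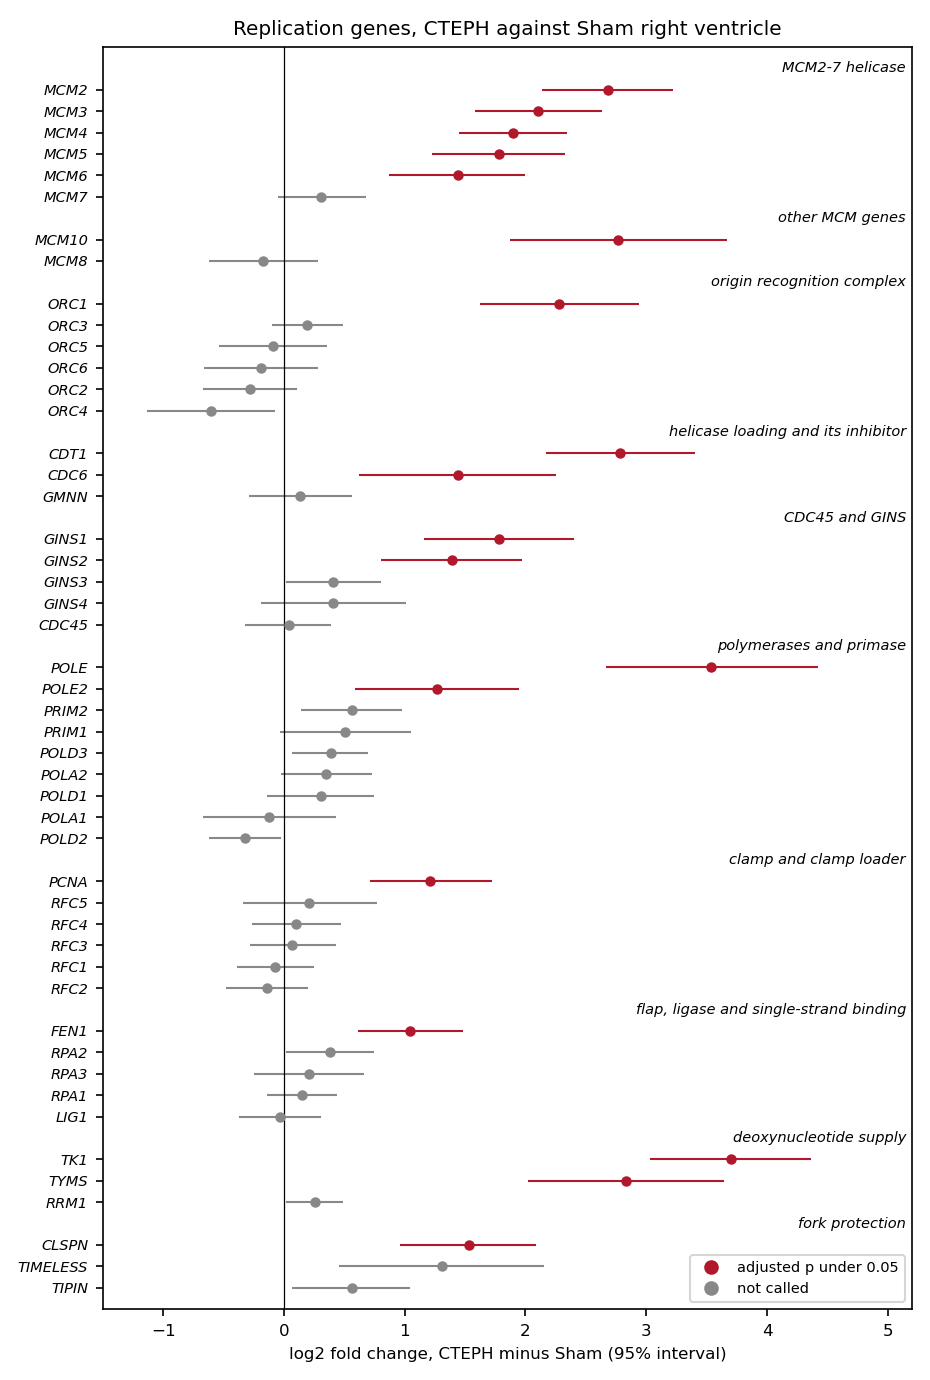
Log2 fold change (CTEPH minus Sham) of the 48 measured replication genes on the horizontal axis, grouped by role; points are estimates, bars are 95% intervals, and the colour marks the 18 genes with an adjusted p under 0.05. TK1 at 3.70 and POLE at 3.54 lie farthest to the right, while ORC4 at -0.60 lies farthest to the left.

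The replicative helicase rose in 5 of its 6 subunits. MCM2, a subunit of the ring (chromosome 13, 72630378 to 72651270 of Sscrofa11.1), had log2 values of 9.36, 8.93, 10.02, 10.21 and 9.88 in CTEPH libraries s1, s3, s4, s5 and s9. In Sham libraries s2, s6, s7, s8 and s10 its values were 7.38, 6.68, 7.09, 6.80 and 7.05. The groups lay far apart, with s3 the lowest CTEPH library and s5 the highest. The difference was 2.68 ± 0.25 (SE), a 6.41-fold rise (adjusted p = 9.9e-05, limma with Benjamini-Hochberg). As recovered counts, MCM2 went from 44 to 95 in Sham libraries to 223 to 780 in CTEPH libraries.

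MCM4, a subunit of the core with helicase activity (chromosome 4, 79674737 to 79686964), read 9.50, 9.28, 9.97, 10.24 and 10.04 in CTEPH libraries and 8.21, 7.85, 8.06, 7.73 and 7.70 in Sham libraries. Its lowest and highest CTEPH libraries were again s3 and s5. Its groups did not overlap either, and the rise was 1.90 ± 0.21 (SE; limma adjusted p = 1.8e-04). MCM3 rose by 2.10 ± 0.24, MCM5 by 1.78 ± 0.25 and MCM6 by 1.44 ± 0.26 on the log2 scale, each without overlap of the groups. MCM7, which sits beside MCM4 in the ring (chromosome 3, 8005890 to 8014047), was not called. Its log2 values were 11.41, 10.74, 10.85, 10.96 and 10.99 in CTEPH and 10.37, 10.52, 10.91, 11.03 and 10.55 in Sham. The groups overlapped, and the difference of 0.31 had a 95% interval of -0.05 to 0.68 (limma adjusted p = 0.326). RefSeq places AP4M1 over part of MCM7, and the sources do not say whether counting used strand. MCM4, ORC1, GINS2 and POLE each overlap another RefSeq gene as well.

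Whether subunits of 1 assembly differed in the size of their change was tested within libraries. For each pair of members in the same role, the difference of their log2 values in each library was set against the group labels by exact permutation, two-sided, with Benjamini-Hochberg adjustment over 111 pairs; such a difference does not move when a whole library is shifted. The test was chosen after values had been seen. In 56 of the 111 pairs the change differed between the genes, and 41 pairs kept this in every refit without 1 library. The share among pairs of other genes was not computed. Genes such as ORC1, POLE and PCNA each enter several of these pairs, so the pairs are not separate results. Among the 15 helicase pairs 10 differed. MCM2 exceeded MCM7 in its change by 2.37, and MCM3, MCM4 and MCM5 exceeded MCM7 by 1.79, 1.58 and 1.47 (each exact p = 0.00794, the smallest this design allows; adjusted p = 0.0192). MCM2 also changed more than MCM6, by 1.24 (exact p = 0.00794, adjusted p = 0.0192). MCM6 and MCM7 differed by 1.12, which missed the threshold (exact p = 0.0397, adjusted p = 0.0722).

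**Figure D2:**
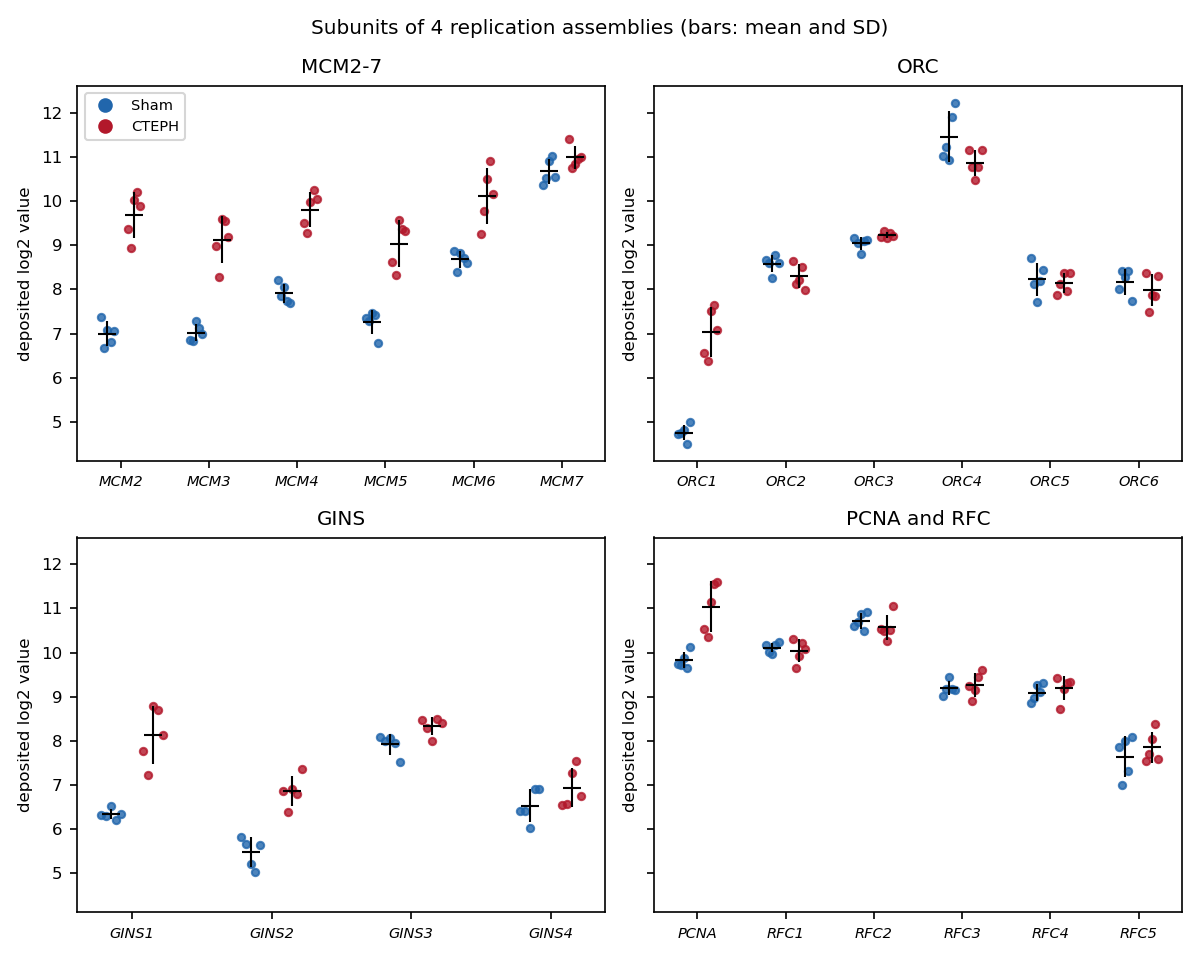
Deposited log2 values (vertical axis) of each subunit of MCM2 to MCM7, ORC, GINS and the PCNA clamp with its RFC loader, 1 point per library, Sham to the left and CTEPH to the right of each gene; horizontal marks and bars are mean and SD of 5 libraries. MCM2 to MCM6, ORC1, GINS1, GINS2 and PCNA separate by group, while MCM7, ORC2 to ORC6, GINS3, GINS4 and RFC1 to RFC5 overlap.

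Of the MCM genes outside the ring, MCM10, which helps to activate the loaded helicase, rose and MCM8, a helicase subunit of recombination, was not called. MCM10 (chromosome 10, 48481292 to 48523921) read 6.87, 6.38, 7.64, 7.89 and 6.85 in CTEPH and 4.62, 4.50, 4.81, 3.0 and 4.87 in Sham. All CTEPH libraries were above all Sham libraries, and s8 was the lowest Sham library with 3 recovered counts. The rise was 2.77 ± 0.42 (SE; limma adjusted p = 0.0023). MCM8 read 8.25, 8.58, 8.65, 8.59 and 9.10 in CTEPH and 8.55, 8.60, 8.60, 9.38 and 8.89 in Sham, a difference of -0.17 with a 95% interval of -0.62 to 0.28. The 2 genes differed in their change by 2.93 (exact permutation p = 0.00794, adjusted p = 0.0192).

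In the origin recognition complex only ORC1 was called, of 6 subunits tested by limma. ORC1 is the ATPase subunit whose abundance is known to vary through the cell cycle. Its values (chromosome 6, 159819302 to 159852306) were 6.55, 6.38, 7.51, 7.65 and 7.09 in CTEPH and 4.73, 4.74, 4.81, 4.50 and 5.00 in Sham. The Sham libraries lay within a narrow band of 9 to 21 recovered counts, and the CTEPH libraries held 39 to 151. ORC1 rose by 2.28 ± 0.31 (SE), or 4.86-fold (limma adjusted p = 9.9e-04).

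ORC4, the uncalled subunit with the smallest p, pointed the other way. It read 11.16, 10.77, 10.48, 10.76 and 11.15 in CTEPH and 11.03, 11.23, 10.93, 11.90 and 12.22 in Sham. Sham libraries s8 and s10 were high, s2 and s7 lay within the CTEPH range, and the difference of -0.60 did not pass (95% interval -1.13 to -0.07; limma adjusted p = 0.189). ORC2, ORC3, ORC5 and ORC6 differed by -0.28, 0.19, -0.09 and -0.19, and none passed. ORC1 changed more than each of the other 5 subunits, by 2.09 (ORC3) to 2.88 (ORC4), at exact permutation p = 0.00794 and adjusted p = 0.0192 each, also in every refit without 1 library.

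Of the loading factors, CDT1 and CDC6 rose and their antagonist GMNN was not called. CDT1 (chromosome 6, 893377 to 897706), which brings the helicase to ORC, read 7.17, 6.50, 7.66, 7.37 and 7.09 in CTEPH and 4.50, 4.64, 4.21, 4.38 and 4.15 in Sham. Every CTEPH library was well above the Sham range of 6 to 20 recovered counts. The rise of 2.78 ± 0.28 (SE) was 6.88-fold (limma adjusted p = 1.4e-04).

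GMNN, which encodes geminin and binds CDT1, read 9.48, 9.21, 9.07, 9.35 and 9.93 in CTEPH and 8.93, 9.05, 9.24, 9.45 and 9.71 in Sham. Its groups overlapped along most of their range, with a difference of 0.13 and a 95% interval of -0.29 to 0.56 (limma adjusted p = 0.756). CDT1 exceeded GMNN in its change by 2.65 (exact permutation p = 0.00794, adjusted p = 0.0192).

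CDC6 (chromosome 12, 22101281 to 22118441), the ATPase that loads the helicase with ORC, had the largest adjusted p of the called members. It read 5.95, 5.44, 6.77, 7.11 and 6.43 in CTEPH and 5.53, 4.95, 4.38, 4.38 and 5.30 in Sham. CTEPH library s3 fell inside the Sham range, which no other called member showed. The rise was 1.44 ± 0.38 (SE; limma adjusted p = 0.0491). It was not called when CTEPH library s4, s5 or s9 was left out (limma adjusted p = 0.118, 0.112 and 0.069) or Sham library s2, s6, s7, s8 or s10 (limma adjusted p = 0.0544, 0.0968, 0.109, 0.111 and 0.0709). It was also not called by limma with voom on the recovered counts (adjusted p = 0.0598).

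Of the helicase activators, GINS1 and GINS2 rose, whereas GINS3, GINS4 and CDC45 were not called. GINS1 (chromosome 17, 31060540 to 31076807) read 7.76, 7.22, 8.79, 8.70 and 8.14 in CTEPH and 6.33, 6.29, 6.53, 6.21 and 6.34 in Sham. GINS2 (chromosome 6, 3218655 to 3252740) read 6.87, 6.38, 6.91, 6.80 and 7.36 in CTEPH and 5.83, 5.67, 5.21, 5.03 and 5.64 in Sham. Neither gene had overlapping groups, and s3 was the lowest CTEPH library in both. GINS1 rose by 1.78 ± 0.29 and GINS2 by 1.39 ± 0.27 (SE; limma adjusted p = 0.0035 and 0.0122).

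GINS3 read 8.47, 8.29, 7.99, 8.50 and 8.40 in CTEPH and 8.09, 7.99, 8.06, 7.96 and 7.51 in Sham. Only CTEPH library s4 lay within the Sham range, and the difference was 0.41 ± 0.18 (limma adjusted p = 0.222). GINS4 also differed by 0.41, with an interval of -0.19 to 1.01. CDC45, the partner of GINS in the active helicase, differed by 0.04 with an interval of -0.32 to 0.39. GINS1 exceeded GINS3 and GINS4 by 1.37 each and CDC45 by 1.75 in its change (each exact permutation p = 0.00794, adjusted p = 0.0192).

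Among 9 genes of the polymerases and primase, the epsilon genes POLE and POLE2 rose and 7 were not called. POLE, the catalytic subunit of the leading-strand polymerase (chromosome 14, 22798146 to 22852818), read 7.43, 6.64, 8.31, 8.68 and 7.99 in CTEPH and 4.79, 4.64, 3.35, 4.21 and 4.34 in Sham. Recovered counts were 46 to 254 in CTEPH and 3 to 20 in Sham, so the lowest CTEPH library, s3, held more than the highest Sham library. POLE rose by 3.54 ± 0.40 (SE), or 11.67-fold (limma adjusted p = 2.5e-04).

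POLE2, the second subunit of that enzyme (chromosome 1, 179495278 to 179529891), read 6.55, 5.85, 6.77, 7.22 and 6.79 in CTEPH and 5.73, 5.37, 5.83, 4.92 and 5.00 in Sham. Its groups were only just apart, at s3 and s7. The rise of 1.27 ± 0.32 (SE; limma adjusted p = 0.0385) was not called without CTEPH library s4, s5 or s9 (limma adjusted p = 0.0881, 0.091 and 0.0575) or Sham library s2, s6, s8 or s10 (limma adjusted p = 0.0544, 0.0798, 0.0881 and 0.0914). POLE exceeded POLE2 in its change by 2.28 (exact permutation p = 0.00794, adjusted p = 0.0192). POLE3 and POLE4, the histone-fold subunits of polymerase epsilon, belong to a separate list of replication genes and differed by -0.04 and -0.05, neither of which passed (limma adjusted p = 0.904 and 0.868).

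PRIM2, the large primase subunit, had the smallest p of the uncalled polymerase genes. It read 8.41, 7.90, 8.20, 8.28 and 8.55 in CTEPH and 7.96, 7.47, 7.57, 7.48 and 8.03 in Sham. CTEPH library s3 lay within the Sham range and the others above it, with a difference of 0.56 ± 0.19 (limma adjusted p = 0.122). The catalytic primase subunit PRIM1 differed by 0.51, POLA1 and POLA2 of polymerase alpha by -0.12 and 0.35, and POLD1 and POLD3 of polymerase delta by 0.31 and 0.39. POLD2, the accessory subunit of polymerase delta, was the member whose CTEPH libraries all lay below the Sham libraries. It read 9.33, 9.35, 9.47, 9.36 and 9.50 in CTEPH and 9.50, 10.02, 9.63, 9.84 and 9.63 in Sham, with s2 and s9 almost equal. POLD2 differed by -0.32 ± 0.14 and was not called (limma adjusted p = 0.214). POLD1 and POLD3 differed from POLD2 in their change by 0.63 and 0.71 (exact permutation p = 0.0238 and 0.00794, adjusted p = 0.0472 and 0.0192), the first kept in 2 of 10 refits without 1 library and the second in 10.

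The sliding clamp rose, and no subunit of its loader was called. PCNA (chromosome 17, 14137746 to 14142584), the ring that holds polymerases on DNA, read 10.54, 10.36, 11.14, 11.56 and 11.60 in CTEPH and 9.75, 9.72, 9.88, 9.66 and 10.12 in Sham. The groups did not overlap, with s1 and s3 nearest to Sham. PCNA rose by 1.21 ± 0.24 (SE), or 2.32-fold (limma adjusted p = 0.0117).

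None of the 5 subunits of replication factor C, the clamp loader, passed by limma. Each also had an unadjusted p over 0.05. Their differences were -0.07 (RFC1), -0.14 (RFC2), 0.07 (RFC3), 0.10 (RFC4) and 0.21 (RFC5), and the widest interval, that of RFC5, ran from -0.34 to 0.77. RFC2 read 10.53, 10.49, 10.26, 10.52 and 11.05 in CTEPH and 10.60, 10.70, 10.87, 10.49 and 10.91 in Sham, so that the ranges overlapped. PCNA exceeded each of the 5 loader genes in its change, by 1.0 (RFC5) to 1.36 (RFC2), with adjusted p = 0.0352 for RFC5 and 0.0192 for the others (exact permutation); the call against RFC5 was kept in 5 of 10 refits without 1 library and the other 4 in 10. No pair among the 5 loader genes differed in its change. In RefSeq, RFC1 overlaps WDR19, RFC3 overlaps LOC102159559, RFC4 overlaps EIF4A2 and RFC5 overlaps WSB2. The counts of these loader genes, and so their contrasts with PCNA, are uncertain.

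Of the genes that finish the lagging strand, FEN1 rose and LIG1 was not called. FEN1 (chromosome 2, 9752004 to 9756863), the nuclease that trims flaps between Okazaki fragments, read 8.92, 8.51, 9.40, 9.58 and 9.29 in CTEPH and 7.99, 8.20, 8.16, 8.06 and 8.07 in Sham. All CTEPH libraries were above the tight Sham band, and the rise was 1.04 ± 0.20 (SE), or 2.06-fold (limma adjusted p = 0.0116). LIG1, the ligase that seals the fragments, differed by -0.03 with an interval of -0.37 to 0.31. FEN1 exceeded LIG1 by 1.08 in its change (exact permutation p = 0.00794, adjusted p = 0.0192).

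Replication protein A coats single-stranded DNA in replication and repair. RPA2 read 9.63, 9.70, 9.91, 10.16 and 10.41 in CTEPH and 9.38, 9.60, 9.47, 9.74 and 9.71 in Sham. Libraries s1 and s3 lay within the Sham range, and the difference was 0.38 ± 0.17 (limma adjusted p = 0.223). RPA1 and RPA3 differed by 0.15 and 0.21.

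The deoxynucleotide genes held the largest rise of all members. TK1, cytosolic thymidine kinase (chromosome 12, 3785997 to 3794824), read 8.26, 8.28, 9.43, 9.48 and 9.14 in CTEPH and 4.73, 5.37, 5.07, 5.82 and 5.11 in Sham. Its recovered counts were 145 to 531 in CTEPH and 12 to 31 in Sham, with no overlap. TK1 rose by 3.70 ± 0.31 (SE), or 12.97-fold (limma adjusted p = 7.8e-05).

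TYMS, which makes thymidylate (chromosome 6, 105642730 to 105660279), read 8.01, 8.55, 7.83, 9.04 and 8.13 in CTEPH and 4.96, 6.13, 6.43, 4.50 and 5.38 in Sham. The groups lay apart, with a wider spread in Sham, from s8 to s7, than in CTEPH. TYMS rose by 2.83 ± 0.37 (SE), or 7.11-fold (limma adjusted p = 8.8e-04). Here s4 and not s3 was the lowest CTEPH library.

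RRM1, the large subunit of ribonucleotide reductase, read 11.55, 11.61, 11.55, 11.66 and 11.76 in CTEPH and 11.36, 11.26, 11.33, 11.52 and 11.37 in Sham. All CTEPH libraries were above all Sham libraries, yet the step of 0.26 ± 0.11 was small and did not pass (95% interval 0.02 to 0.49; limma adjusted p = 0.21). TK1 and TYMS exceeded RRM1 in their change by 3.44 and 2.57 (each exact permutation p = 0.00794, adjusted p = 0.0192).

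Of the genes that steady the fork, CLSPN rose. It encodes claspin, which links the fork to the checkpoint kinase CHEK1 (chromosome 6, 91906325 to 91968070). CLSPN read 8.49, 7.30, 8.06, 8.42 and 7.67 in CTEPH and 6.50, 6.31, 6.14, 6.54 and 6.82 in Sham, with no overlap and a rise of 1.53 ± 0.26 (SE; limma adjusted p = 0.0053). RefSeq places AGO4 over part of it.

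TIMELESS read 6.43, 5.91, 7.08, 6.95 and 7.15 in CTEPH and 4.89, 5.30, 4.81, 5.29 and 6.72 in Sham. The high Sham library s10 overlapped with s1 and s3, and the difference of 1.31 ± 0.39 was not called (limma adjusted p = 0.0782). Without s10 TIMELESS was 1.63 higher and was called (limma adjusted p = 0.0228), the only uncalled member to gain a call in the refits without 1 library. Its partner TIPIN, which overlaps DIS3L in RefSeq, differed by 0.56 ± 0.23 (limma adjusted p = 0.187).

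**Figure D3:**
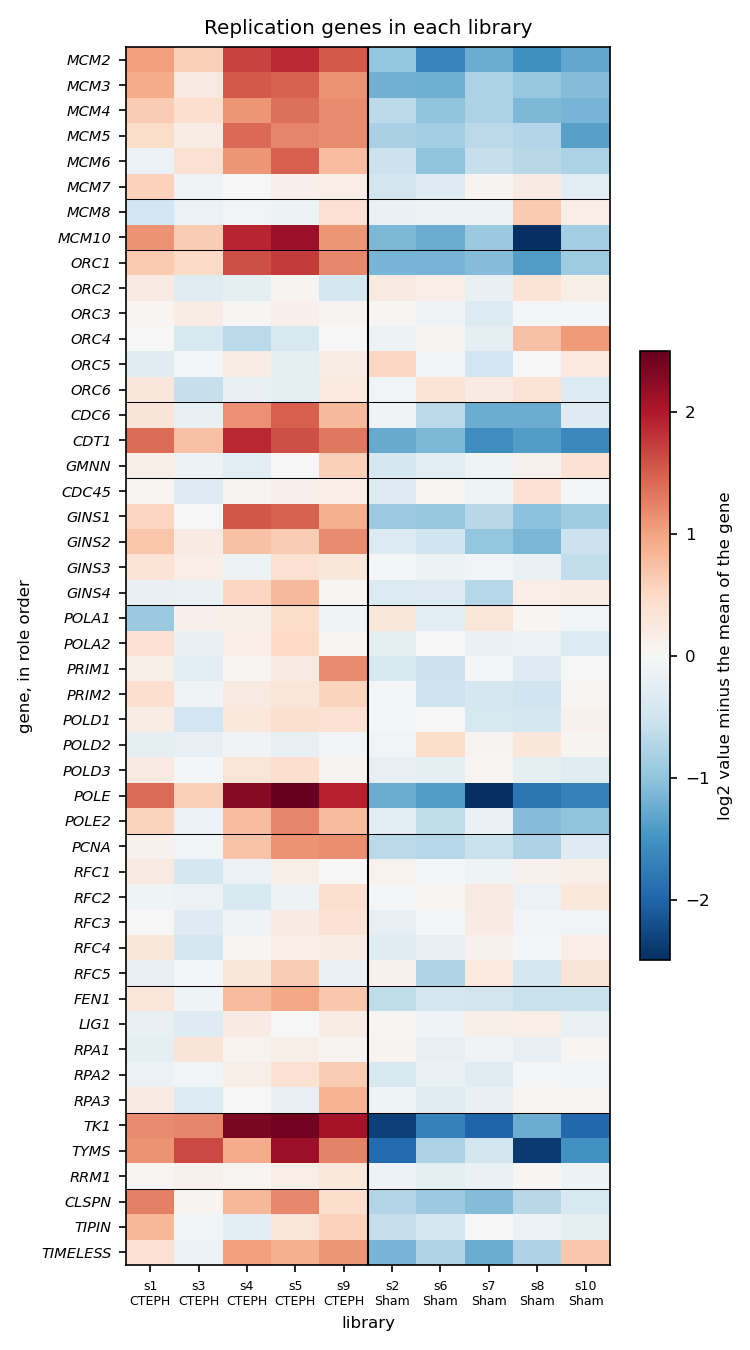
Log2 value of each of the 48 genes (rows, in role order) minus its mean over the 10 libraries (columns, CTEPH left and Sham right); red is above and blue below the mean, and the colour scale ends at 2.5 on either side. TK1, POLE, TYMS, CDT1 and MCM10 show the strongest split by group, and s3, with a mean of 0.04, is the palest CTEPH column.

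Other genes of DNA replication, kept on a separate list, gave 9 rises and 0 falls among 52 measured genes, or 17.3% (limma, adjusted p under 0.05). Of all genes 2.83% rose, and the median log2 fold change of this list was 0.20. This list was chosen with earlier results of these data known, so its count is no independent result. At an unadjusted p under 0.05 DBF4B and DHODH were lower. PCLAF, a PCNA-binding protein, read 8.56, 8.51, 9.40, 10.49 and 10.14 in CTEPH and 5.03, 5.67, 5.07, 6.16 and 5.21 in Sham. It rose by 3.99 ± 0.39, or 15.9-fold (limma adjusted p = 1.2e-04), with no overlap of the groups. The nuclease-helicase DNA2 rose by 2.48 ± 0.35, the CDT1-degrading ubiquitin ligase adaptor DTL by 2.49 ± 0.42 and the firing factor RECQL4 by 1.84 ± 0.32 (limma adjusted p = 0.0016, 0.0052 and 0.0054). MTBP (1.67 ± 0.39), the alternative clamp-loader subunit CHTF18 (1.01 ± 0.23) and the checkpoint kinase gene CHEK1 (1.27 ± 0.28) were called as well (limma adjusted p = 0.0296, 0.0238 and 0.0209). MTBP lost its call in 6 of 10 refits without 1 library (without s2, s5, s6, s8, s9 or s10), CHTF18 in 3 (without s4, s6 or s10) and CHEK1 in 3 (without s5, s6 or s7), at adjusted p of up to 0.0769, 0.0664 and 0.0554 (limma).

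Within that list the CDC7 kinase and its activator DBF4, which fire licensed origins, differed by 0.31 and 0.28 and did not pass. Of the checkpoint genes ETAA1 and RAD9A differed by 0.47 and -0.14, and neither passed. Of 20 further nucleotide genes 2 rose: CTPS1, which makes CTP, by 1.40 ± 0.28 and the nucleoside diphosphate kinase NME1 by 0.74 ± 0.14 (limma adjusted p = 0.013 and 0.0103). CTPS2, its paralogue, differed by -0.30 (adjusted p = 0.347, limma), but the difference between the paralogues was not tested. DHODH, a mitochondrial enzyme of pyrimidine synthesis, was lower in every CTEPH library than in any Sham library, as were 2.87% of all genes. CTEPH library s1 (8.77) and Sham library s8 (8.78) were almost equal. Its log2 fold change of -0.70 ± 0.21 was not called (limma adjusted p = 0.079). Fitted with library weights it was -0.81 and called (limma adjusted p = 0.035).

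Mitotic genes were the nearest comparison. Of 20 genes named on a mitotic list 18 were measured, while MKI67 and AURKA matched no symbol. All 18 rose by limma, where 2.83% of all genes rose, and their median log2 fold change was 3.45. The list was chosen with earlier results of these data known, so this count is no independent result. UBE2C (4.66 ± 0.39), KIF20A (4.27 ± 0.37) and BUB1 (3.98 ± 0.34) had the smallest p. AURKB, at 0.90 ± 0.24, was the mitotic gene with overlapping groups and kept its call only without s1 of the 10 refits without 1 library. Whether the 2 lists differ in their share of rises was not tested.

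The CTEPH libraries, 1 from each pig, differed among themselves, and not in the same order for the replication and the mitotic genes. The mean deviation of the 48 members from their gene means was 0.32 in s1, 0.04 in s3, 0.53 in s4, 0.70 in s5 and 0.60 in s9, against -0.48 to -0.35 in the Sham libraries. For the mitotic list s1 stood at 0.61 and s4, s5 and s9 at 2.07, 2.28 and 1.99, with s3 in between, against -1.77 to -1.48 in Sham. Library s3 was thus lowest for replication genes and s1 for mitotic genes, and s5 was highest for both. Gene by gene, s3 was the lowest CTEPH library in 29 of the 48 members and s1 in 11. Among the 18 called members s3 was lowest in 15 and s1 in 2. Among the 18 mitotic genes s3 was lowest in 2 and s1 in 16. These are counts in single animals, with no test. With 1 library per pig, differences between pigs and differences between libraries cannot be told apart. In the fit with library weights, s1 had the lowest weight of all libraries (0.476), against 1.133 for s3.

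Of 6 markers of macrophages and monocytes, LYZ and TREM2 rose and 0 fell (limma, adjusted p under 0.05), where 2.83% of all genes rose. None was at 0 in any library, but TREM2 was near the floor, with 1 to 7 recovered counts in Sham libraries and 6 to 76 in CTEPH libraries. CD163, CSF1R, MRC1 and CD68 were not called, with log2 differences of 0.91, 0.03, 0.21 and -0.50. At an unadjusted p under 0.05 there were 4 of the 6, with CD68 lower in CTEPH, and 20.3% of all genes. LYZ rose by 2.38 ± 0.55 (limma adjusted p = 0.0279) and lost its call without s2, s3, s4, s5 or s7. TREM2 rose by 2.69 ± 0.65 with overlapping groups (limma adjusted p = 0.0325) and lost its call without s2, s3, s4, s5, s6, s7 or s8. The mean deviation of all 6 markers was 0.23 to 0.92 in CTEPH and -0.80 to -0.03 in Sham. It was highest in s3, where LYZ (9.24) and TREM2 (6.70), both part of this mean, had their highest values. CD163, CSF1R, MRC1 and CD68 were highest in s1, s4, s9 and Sham library s7 (12.54, 11.32, 10.05 and 9.38). In s3 they read 10.89, 11.31, 9.28 and 8.74. The part of these cells in the rise of the replication genes was not tested. Of the other marker lists, MYL2 of the 5 cardiomyocyte markers was higher (0.99 ± 0.21, not called without s4) and TEK of the 5 endothelial markers lower (-0.78 ± 0.17, not called without s3, s4, s6, s8 or s10). The other lists had no call: 0 of 6 fibroblast, 0 of 6 T and NK lymphocyte, 0 of 2 B and plasma cell, 0 of 4 smooth muscle and pericyte and 0 of 2 erythroid markers passed by limma, with 2, 0, 0, 2 and 0 at an unadjusted p under 0.05.

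**Figure D4:**
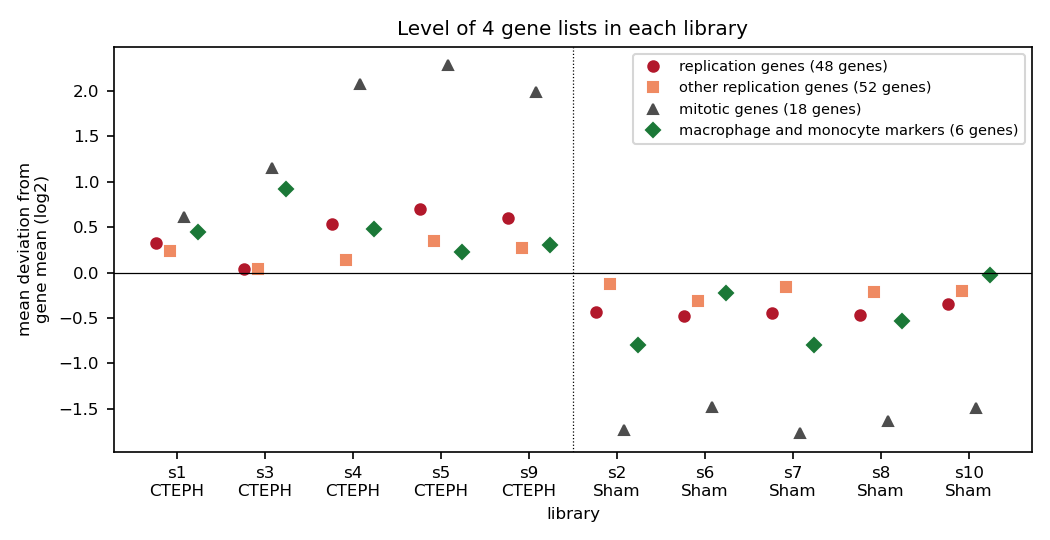
Mean deviation from the gene mean, on the log2 scale (vertical axis), of 4 gene lists in each library (horizontal axis, CTEPH left, Sham right). Replication genes lie between 0.04 and 0.70 in CTEPH and between -0.48 and -0.35 in Sham, and mitotic genes spread further, from 0.61 to 2.28 and from -1.77 to -1.48.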

How the data were processed

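Right ventricular biopsies of 10 pigs gave 1 library each. The labels name a total-RNA kit but give the molecule as polyA RNA. Counting with featureCounts on the build Sscrofa11.1 and the packages limma 3.50.0 and edgeR 3.36.0 are listed in the submitters' processing notes; aligner, annotation, strand setting and low-gene filter are not given there. The deposited values are log2 values with nearly the same distribution in each library, as quantile normalization leaves, so a change shared by most genes would not show.

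Low values equal the mean over libraries of ranked log2(2k + 1) for whole k. Each k was recovered below 11.18 to within 5.0e-09 (tolerance 3e-08); whether k or 2k reads were counted is not known. Total counts could not be computed, so relative depth is the median ratio to the geometric mean over 10295 genes with at least 5 counts in each library.

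Ensembl identifiers gave symbols for 12378 genes. Coordinates are from RefSeq's Sscrofa11.1 table, counted from 1, matched by symbol; 46 members had one on a chromosome, and 11 of these overlap another RefSeq gene, so their counts are uncertain.

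Groups were compared with limma 3.58.1 (R 4.3.3; intensity trend, two-sided, no covariate, 5 against 5), with Benjamini-Hochberg adjustment over all genes of the table, after the procedure was tested on simulated data. Intervals are 95%, from the moderated fit. Members and lists were chosen with earlier results of these data known. Values in every library are given, in each role, for the 2 called genes with the smallest p, the uncalled gene with the smallest p and any gene called lower. Of the other replication genes the 3 with the smallest p in each role were named, and of the mitotic genes 3. POLD2, PCLAF's values, POLE3, POLE4, CDC7, DBF4 and CTPS2 were added after values were seen. Alternatives were other variance models, library weights, a low-value filter, 2 scalings, voom on recovered counts and leaving out each library.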

Additional observations from a re-analysis of the deposited data

Results flagged for a closer look

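In 7 of 126 groups of 5 libraries, 1 library stood apart from the other 4 (Dixon's test at 95%). Its gap exceeded 0.71 of the group's whole range, and chance flags about 1 in 20 groups. The groups also covered genes that are no members, while all 7 flags were in members. Of these, 3 lie in Sham library s10, written here as log2 values: MCM5 at 6.79 (others 7.28 to 7.47), GINS3 at 7.51 (others 7.96 to 8.09) and TIMELESS at 6.72 (others 4.81 to 5.30). MCM10 was at 3.0 in Sham library s8 (others 4.50 to 4.87), and POLD3 at 9.06 in Sham library s7 (others 8.73 to 8.83). In CTEPH library s3, CDC45 was at 8.83 (others 9.19 to 9.31) and POLD1 at 8.0 (others 8.66 to 8.88).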

How the results depend on the processing

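The count of 18 rising members was 16 to 18 in the 10 refits without 1 library and 18 under other variance models, library weights, re-centring and cyclic loess. With voom it was 16 of 44 members tested. Dropping the lowest 25% of genes left 38 members tested, 10 of them rising, 40 other replication genes, 3 of them rising, and 11 mitotic genes, 10 of them rising. The 8 members and 6 other replication genes that lost their calls were not tested under this filter, nor were 7 mitotic genes, while AURKB was tested and lost its call (limma adjusted p = 0.0529). With library weights 1 of the other replication genes, DHODH, fell. Over all genes, rises numbered 722 with library weights and 273 under that filter, and 270 to 570 without 1 library (270 without s4, 281 without s10). Falls numbered 280 in the main fit, 547 with library weights and 117 to 392 without 1 library. With voom 164 of 11372 tested genes fell. Of 802 refitted member values, 773 kept direction and side of the threshold, 16 lost a call (CDC6 and POLE2), 1 gained one (TIMELESS) and 12 changed sign. Those 12 were uncalled and near 0: ORC5 (-0.22 to 0.03 without 1 library), CDC45 (-0.04 to 0.13), POLA1 (-0.25 to 0.10), RFC1 (-0.14 to 0.02), RFC3 (-0.0087 to 0.17) and LIG1 (-0.09 to 0.04), and with library weights GMNN (-0.01), RFC3 (-0.0072) and RFC4 (-0.01). The cause was not tested. The 56 pairs became 44 to 53 without 1 library and 55 with cyclic loess, alternatives chosen after seeing the data. No paired analysis was possible because each library number occurs in 1 group only. Fold changes of genes with few counts, such as POLE or MCM10 in Sham, are compressed by the constant added before the logarithm.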
